A study of Solanum lycopersicum with 18 samples.

Results

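Fruit of the tomato mutant rin and of wild type were compared at 35 DAP, which the labels spell out as days after planting and describe as the immature green stage in both genotypes. The comparison rests on 6 of the 18 arrays in the series, chosen by genotype and age alone: 3 of rin at 35 DAP and 3 of wild type at 35 DAP. All fruit carried the variety name Pusa Ruby, no treatment was given, and RNA came from pericarp, the fleshy wall of the fruit. The study set the genotypes against each other at 35, 40 and 45 DAP, with 3 arrays per genotype and age, and the youngest age asks what differs in green fruit. The labels do not say how the rin lesion was brought into Pusa Ruby, so the lesion and any other genetic difference between the lines cannot be told apart.

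RIN encodes a MADS-box transcription factor that acts near the top of the ripening network of tomato. In wild-type fruit it takes part in switching on the burst of ethylene, the build-up of the red carotenoid lycopene, softening of the cell wall and aroma formation. Fruit homozygous for the rin allele, a deletion known to join RIN to its neighbouring MADS-box gene, stay firm and do not turn red, while they grow to full size much as wild-type fruit do. Immature green pericarp comes before that programme and is occupied with growth, photosynthesis and starch storage.

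Signals are the deposited intensity values of the Affymetrix tomato array on a linear scale. The 6 arrays had medians between 79.49 and 86.11, and between 4713 and 4829 probe sets per array lay above 100. A signal at or below its own array's 30th percentile, which was 13.72 to 15.34 here, is called dim below. Across the 7717 tested probe sets, log2 signals of different arrays correlated at 0.867 to 0.942 within rin, at 0.922 to 0.974 within wild type and at 0.884 to 0.938 between the genotypes, as a description of arrays of the same tissue. The spread between replicates was wider in rin, with a median SD of 0.411 on the log2 scale, against 0.251 in wild type. The 3′ to 5′ ratio of the actin, elongation factor and GAPDH control probe sets, a sign of RNA integrity, averaged 0.606, 2.33 and 1.48 on the log2 scale in rin replicates 1 to 3, against 1.12, 0.922 and 0.894 in wild-type replicates 1 to 3. The part of RNA integrity in the results was not tested. The fruit transcript 2A11, looked up after its values were seen, gave 13420 to 20340 on the rin arrays and 16480 to 19770 on the wild-type arrays. The titles number a separate plant for each array of a group and call them biological replicates, while plant codes recur across ages. In whole pericarp, fewer cells of a type and less RNA per cell cannot be told apart.

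Fewer transcripts were called between the genotypes at 35 DAP than at the later ages. In 1 limma model over all 18 arrays, 26 of 7717 probe sets (0.337%) passed a Benjamini-Hochberg adjusted p of 0.05, 11 higher in rin (0.143%) and 15 lower (0.194%). At an unadjusted p of 0.05, 650 probe sets (8.42%) passed. The same test called 2002 probe sets (25.9%) at 40 DAP and 2179 (28.2%) at 45 DAP. A test of the difference between ages, which shares the 35 DAP arrays, called 723 probe sets (9.37%) for 40 against 35 DAP and 1018 (13.2%) for 45 against 35 DAP. Over all tested probe sets the median log2 difference, rin minus wild type, was -0.03, and the interquartile range ran from -0.28 to 0.24. The median 95% interval, not adjusted for the number of tests, reached 0.71 to either side on the log2 scale. Differences smaller than that were mostly not detectable with 3 arrays per group. Passing the adjusted threshold took more. The smallest difference called was 1.26 in size, and the gene GAI, described below, was not called at 2.22. The count depended on single arrays: it was 226 without rin replicate 1, whose correlation of 0.867 with rin replicate 2 was the lowest within a group, and 40 without wild-type replicate 1. Without both second replicates, an alternative added after seeing the data, it was 17. The count also depended on the weighting of arrays and on how the spread was estimated. With array quality weights, which also enter the group means, 1689 probe sets were called (858 higher, 831 lower). Those weights were 0.231, 0.424 and 2.87 for rin replicates 1 to 3. For wild-type replicates 1 to 3 they were 1.3, 0.589 and 2.87, so replicate 3 weighed most in both groups. With only the 6 arrays at 35 DAP, 7 were called.

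RIN itself came first among the genes examined, since it checks the labels. Its signals were 5.91, 6.389 and 5.461 on the rin arrays, against 158.5, 62.5 and 236.2 on the wild-type arrays. All rin signals were dim and within the range of the 15 negative control probe sets, whose highest value was 6.854, while all wild-type signals were well above that range and the groups did not overlap. The rin signal of RIN was at least 9.41-fold lower, with a log2 difference of -4.49 (95% interval -5.28 to -3.70) and an adjusted p of 1.34e-05 by limma. The transcript was already measurable in wild-type fruit labelled immature green. Because rin was dim, that log2 difference is set partly by the floor of the arrays, and the fold is a lower bound. RIN stayed dim on all rin arrays at the later ages, where wild-type signals reached 4020 to 4911 at 40 DAP and 5434 to 6929 at 45 DAP, so it was at least 299-fold and at least 415-fold lower in rin. The call at 35 DAP was lost when only the 6 arrays of that age were fitted (adjusted p = 0.0618). Where the probes lie relative to the deleted part of the gene was not analysed here.

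CS2 was the other called gene with a symbol. It encodes an isogene of chorismate synthase, the last enzyme of the shikimate pathway, which supplies the aromatic amino acids. CS2 gave 163.6, 156.9 and 125.6 on the rin arrays, against 14.04, 12.5 and 14.18 on the wild-type arrays, which were all dim. The groups lay far apart and each was tight. CS2 was at least 9.78-fold higher in rin, with a log2 difference of 3.45 (95% interval 2.67 to 4.23) and an adjusted p of 2.7e-04 by limma. At 40 and 45 DAP the log2 difference was 3.68 and 2.92, with adjusted p of 1.11e-05 and 3.86e-05 by limma, and neither interaction with age passed (adjusted p = 0.812 and 0.542). Signals in wild type stayed between 12.3 and 17.04 at those ages.

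Other enzymes of the shikimate pathway, looked up after the values of CS2 were seen, were not called. CS1, the second chorismate synthase, gave 668.1, 713.6 and 575.7 in rin and 543.5, 616.5 and 619.3 in wild type, with overlapping groups and a log2 difference of 0.13. DHQS, which forms dehydroquinate earlier in the pathway, gave 604.3, 521.6 and 583.4 in rin and 562.8, 451.3 and 657.8 in wild type, again overlapping. Shikimate kinase, SK, stood at 220.9, 195 and 243.3 in rin, against 160.6, 128.3 and 137.1 in wild type. The SK groups did not overlap, yet the log2 difference of 0.63 missed the threshold (adjusted p = 0.416 by limma). All of CS1, DHQS and SK were called lower in rin at the later ages, opposite to CS2. SK stood at -0.80 at 40 DAP and -1.24 at 45 DAP on the log2 scale (adjusted p = 0.0145 and 6.66e-04 by limma). CS1 stood at -1.03 and -0.91 (adjusted p = 3.06e-04 and 5.68e-04 by limma). DHQS stood at -0.80 and -1.11 (adjusted p = 0.0137 and 0.00146 by limma).

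**Figure D1:**
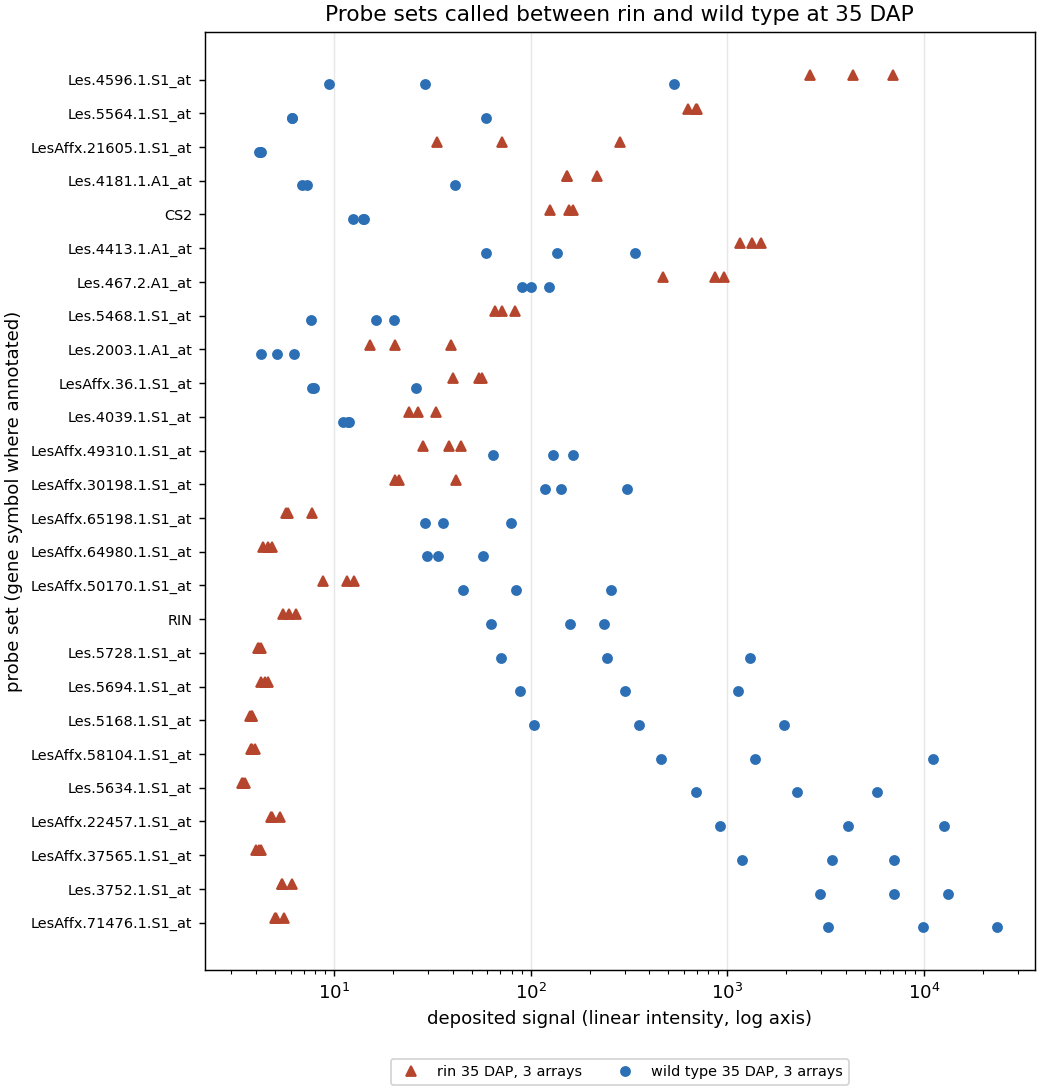
Deposited signal (log axis) of the 26 probe sets called between rin and wild type at 35 DAP, ordered by log2 difference, with rin arrays as triangles and wild-type arrays as circles, 3 of each. For the 11 probe sets higher in rin the triangles lie to the right of all circles, and for the 15 lower ones to the left, with 13 of those 15 dim on every rin array.

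The remaining 24 called probe sets carry no gene symbol in the annotation used here and are given by their identifiers. In all 26 the 3 arrays of one genotype lay wholly above the 3 of the other, as was true of 961 of the 7717 tested probe sets (12.5%). The median log2 difference was 3.25 for the 11 higher ones, with a range of 1.26 to 6.36, and -6.13 for the 15 lower ones, from -1.62 to -10.77. In the plot of the called signals the lower set spans the wider range. Among the lower ones, 13 of 15 were dim on all rin arrays, whereas 4 of the 11 higher ones were dim on all wild-type arrays. Of the 26, 14 had fewer than 3 bright arrays outside the 35 DAP groups and so entered the test largely through the group where they were high. Of those 14, 11 were in the lower set.

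The 5 unnamed lower probe sets with the widest differences shared a pattern: signals near the floor of the arrays in rin and above the 30th percentile on every wild-type array. LesAffx.71476.1.S1_at gave 5.572, 5.083 and 4.992 in rin, against 3247, 23540 and 9852 in wild type. Les.3752.1.S1_at gave 6.105, 5.401 and 5.442 in rin, against 2953, 13230 and 7038 in wild type. In both, every rin array was dim and wild-type replicate 2 was the brightest array. LesAffx.71476.1.S1_at was at least 644-fold lower in rin (log2 difference -10.77, adjusted p = 3.75e-04 by limma), a bound that moved to 401-fold without wild-type replicate 2 and to 1080-fold without wild-type replicate 1. Les.3752.1.S1_at was at least 461-fold lower (adjusted p = 0.00407 by limma). LesAffx.22457.1.S1_at gave 4.774 to 5.276 in rin, against 922.8, 12600 and 4124 in wild type. LesAffx.37565.1.S1_at gave 3.982 to 4.234 in rin, against 1186, 7073 and 3401 in wild type. Les.5634.1.S1_at gave 3.414 to 3.508 in rin, against 694, 5773 and 2255 in wild type. The wild-type arrays kept the same order in all 5. The bounds were at least 257-fold lower for LesAffx.22457.1.S1_at, at least 216-fold for LesAffx.37565.1.S1_at and at least 148-fold for Les.5634.1.S1_at. Without wild-type replicate 2 they were 138, 142 and 88.6, and without wild-type replicate 1 they were 511, 347 and 256. The call of Les.5634.1.S1_at, at an adjusted p of 0.00786 by limma, was lost without wild-type replicate 2 (adjusted p = 0.0626). Those of LesAffx.37565.1.S1_at and Les.3752.1.S1_at were lost without both second replicates (adjusted p = 0.097 each).

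This order among wild-type arrays, replicate 2 above 3 above 1, was common to 10 of the 15 lower probe sets. It held for 20.9% of all tested probe sets. More widely, 23 tested probe sets (0.298%) were dim on all 3 rin arrays and on none of the 3 wild-type arrays. Equally many, 23 (0.298%), were dim on all 3 wild-type arrays and on none of the 3 rin arrays, and 4 of those were called. Of the 23 dim in rin only, 13 were called and 15 showed that wild-type order, among them GolS-1. GolS-1, galactinol synthase, makes the donor for raffinose-type sugars and gave 4.102, 3.732 and 3.711 in rin, against 28.1, 308 and 87.06 in wild type. It missed the threshold (log2 difference -4.57, 95% interval -6.55 to -2.58, adjusted p = 0.0535 by limma). Within the 15, wild-type replicate 2 exceeded replicate 1 by 3.03 to 24.3 times and replicate 3 exceeded it by 1.63 to 4.47 times. The 15 were picked on these values, so the ratios are a description.

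Most of the 15 were bright on few of the 12 arrays at 40 and 45 DAP. Of them, 9 were bright on wild-type replicate 1 at 40 DAP alone, 4 on that array and others, and 2, LesAffx.58104.1.S1_at and LesAffx.50170.1.S1_at, on none. The exception was LesAffx.56426.1.S1_at, which was bright on all 12. At 40 DAP, 13 of the 15 lay above the 30th percentile on wild-type replicate 1, against 2 on replicate 2 and 1 on replicate 3. Among the 10 called ones, that array gave 4.772 to 2213, with 1029 for LesAffx.37565.1.S1_at and 1072 for Les.5634.1.S1_at, while the highest signal on wild-type replicates 2 and 3 was 5.51. No other array of the later ages exceeded 10.5 for these 10, in either genotype. GolS-1 gave 78.81 on that array and 3.559 to 4.03 on the other arrays at 40 and 45 DAP.

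Markers of tissues other than pericarp were examined beside this pattern. Of 11 seed symbols sought, 2 were annotated. MAN2, a mannanase of germinating seeds, was dim on all 18 arrays. TAS14, a dehydrin induced by abscisic acid and drought, gave 301.2, 198.7 and 602 in rin, against 298.2, 1181 and 652.9 in wild type, so wild-type replicate 2 was highest there too although the groups overlapped. The other 9 seed symbols were not in the annotation used here, and the part of seed tissue in the result was not tested. The epidermal lipid transfer genes TSW12, LE16 and ltpg1 summed to 22390, 7177 and 11120 in rin, against 8405, 18780 and 12960 in wild type, with 0 of the 3 called. Their sums overlapped between the groups, with rin replicate 1 and wild-type replicate 2 the highest, and the part of epidermis was not tested either.

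**Figure D2:**
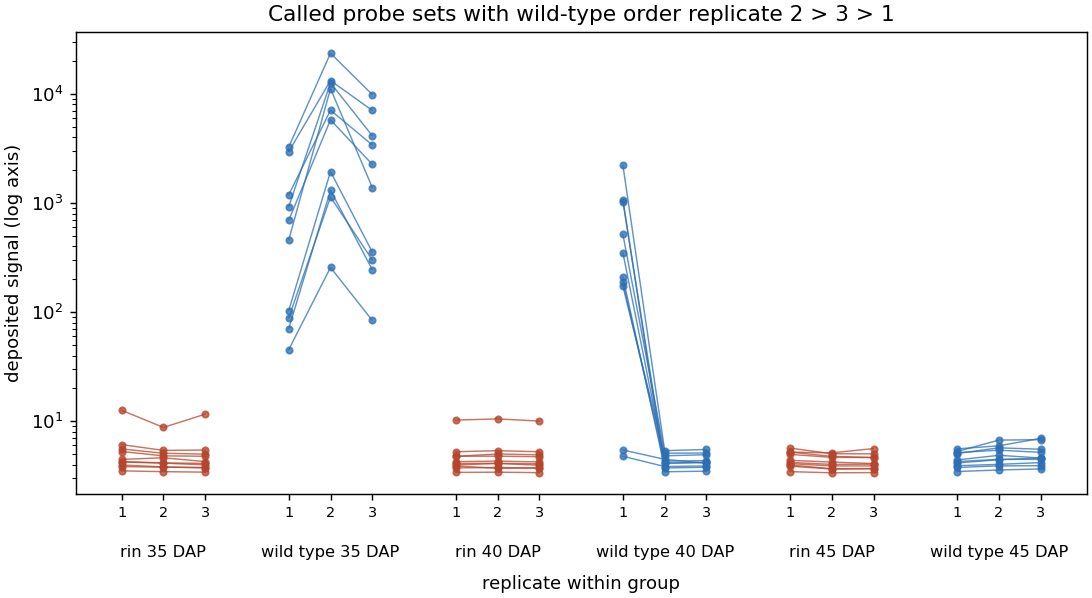
Signal (log axis) of the 10 called probe sets with the wild-type order replicate 2, 3, 1, on all 18 arrays, with 1 line per probe set within each group of 3 replicates, rin left of wild type at each age. The lines stand high in wild type at 35 DAP, again on replicate 1 of wild type at 40 DAP for 8 of them, and otherwise stay at or under 12.59.

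The other 5 lower probe sets, RIN among them, did not show that order, and 3 of the 15 were called lower at all 3 ages. LesAffx.65198.1.S1_at gave 7.698, 5.698 and 5.821 in rin, against 29.11, 35.69 and 79.26 in wild type (log2 difference -2.78, adjusted p = 7.29e-04 by limma). It stood at -5.31 at 40 DAP and -5.05 at 45 DAP on the log2 scale. LesAffx.49310.1.S1_at gave 44, 28.3 and 38.24 in rin, against 129.5, 165 and 64.38 in wild type (log2 difference -1.62, adjusted p = 0.0368 by limma). Its differences of -2.05 and -2.14 at 40 and 45 DAP were close to that at 35 DAP. Both identifiers were singled out after their values were seen, because with RIN they are the 3 called at every age.

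The 5 unnamed higher probe sets with the widest differences followed several patterns. Les.4596.1.S1_at gave 2621, 4373 and 7011 in rin, against 9.4, 534 and 28.93 in wild type (log2 difference 6.36, 95% interval 4.37 to 8.35, adjusted p = 0.00349 by limma). Les.5564.1.S1_at gave 704.4, 696 and 633.8 in rin, against 58.91, 6.089 and 6.102 in wild type (log2 difference 5.71, adjusted p = 2.7e-04 by limma). In both, 1 wild-type array stood well above the other two and all rin arrays lay above it. The log2 difference of Les.4596.1.S1_at was 5.12 without wild-type replicate 1 and 8.03 without wild-type replicate 2, and that of Les.5564.1.S1_at was 6.80 without wild-type replicate 1. Both remained higher in rin at 40 and 45 DAP, where Les.4596.1.S1_at reached 10.71 and 10.62 and Les.5564.1.S1_at reached 6.93 and 5.89 on the log2 scale. LesAffx.21605.1.S1_at gave 284.8, 33.42 and 71.4 in rin, against 4.163, 4.171 and 4.245 in wild type. It was at least 5.82-fold higher in rin (adjusted p = 9.83e-04 by limma), a bound that was 3.23 without rin replicate 1 and 9.44 without rin replicate 2. Its call was lost with an offset of 32 added to the signal (log2 difference 1.83, adjusted p = 0.0857 by limma). Wild type was at the floor for it on every array of the series, between 4.163 and 4.774.

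Les.4181.1.A1_at differed at 35 DAP and not later. Its signals were 153.4, 153.2 and 217.6 in rin, against 40.99, 6.87 and 7.255 in wild type, a log2 difference of 3.76 (adjusted p = 0.00153 by limma). At 40 and 45 DAP both genotypes were dim, with differences of 0.38 and -0.07, and the interactions with age passed (adjusted p = 0.0104 and 0.003). Les.4413.1.A1_at gave 1166, 1343 and 1481 in rin, against 135.6, 337.3 and 58.87 in wild type (log2 difference 3.25, adjusted p = 0.00786 by limma). It was higher at 40 DAP (2.43, adjusted p = 0.00386 by limma) and not called at 45 DAP (1.14, adjusted p = 0.125). With only the 6 arrays at 35 DAP, all 5 of these higher probe sets lost their call, at adjusted p of 0.172 for Les.5564.1.S1_at, 0.232 for LesAffx.21605.1.S1_at, 0.284 for Les.4413.1.A1_at, 0.313 for Les.4181.1.A1_at and 0.43 for Les.4596.1.S1_at by limma.

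**Figure D3:**
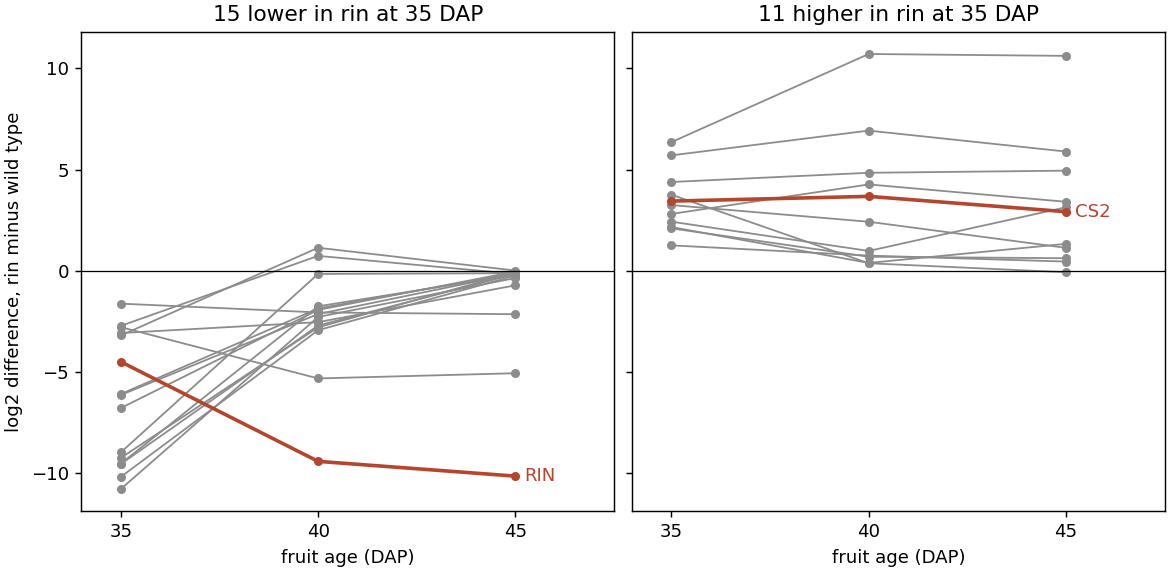
Log2 difference, rin minus wild type, at 35, 40 and 45 DAP for the probe sets called at 35 DAP, with the 15 lower in rin on the left and the 11 higher on the right, 1 line each. RIN moves away from 0 with age and CS2 stays between 2.92 and 3.68, while most lower probe sets lie near 0 by 45 DAP.

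Followed to the later ages, the higher set and most of the lower set took different courses, as the plot of differences by age shows. Of the 11 higher probe sets, 7 were also called higher at 40 DAP and 7 at 45 DAP, against 15.1% and 13.2% of all tested, and 5 were called at all 3 ages. Of the 15 lower ones, 4 were also called lower at 40 DAP and 3 at 45 DAP, against 10.8% and 15% of all tested. These later calls all came from the 5 lower probe sets without the wild-type order replicate 2 above 3 above 1. The 10 with that order had no call at a later age, so the contrast with the higher set rests on them. None of the 26 was called in the opposite direction at a later age. The interaction of genotype and age, in which the difference at 35 DAP is itself a term, was called for 14 of the 15 lower probe sets at 45 DAP, and in 12 of those the difference was smaller than at 35 DAP. It was called for 2 of the 11 higher ones at 45 DAP. Since the 26 were chosen by their difference at 35 DAP, these counts describe them and are not a test.

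Among ripening regulators, RIN was the only called gene of 5 measured, and the median log2 difference of the list was -0.83, against -0.03 over all probe sets. NOR, a NAC transcription factor required for ripening, gave 60.56, 9.654 and 77.06 in rin, against 75.82, 108.4 and 129.2 in wild type. TDR4, the FRUITFULL-type MADS-box partner of RIN, gave 1337, 141.3 and 581.7 in rin, against 433.8, 1048 and 1362 in wild type. Both overlapped between genotypes and neither passed (adjusted p = 0.731 and 0.808 by limma), and in each the lowest signal was that of rin replicate 2. The direction for TDR4 rested on that array: the log2 difference was -0.83 with it and 0.05 without it. The median of the 5 regulators given above was this same TDR4 value of -0.83. TAGL1, a MADS-box gene of fruit expansion and ripening, gave 637.8 to 1104 in rin and 864.6 to 1081 in wild type. Of the 4 other MADS-box genes measured, 0 were called and the median difference was -0.01.

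Ethylene synthesis had 0 of 10 genes called and a median of -0.08. ACS2 and ACS4 encode the ACC synthases of the ripening burst. ACS2 was dim on all arrays, at 4.654 to 4.668 in rin and 4.545 to 5.32 in wild type. ACS4 gave 8.293, 24.96 and 157.5 in rin, against 14.69, 6.398 and 39.29 in wild type, overlapping widely. E8, an ethylene-responsive ripening gene that limits ethylene output, gave 1801, 60.43 and 1644 in rin, against 2272, 2324 and 4055 in wild type. The E8 groups did not overlap, and the log2 difference of -2.30 missed the threshold (adjusted p = 0.487 by limma). It was -0.69 without rin replicate 2, the array with the highest 3′ to 5′ ratio, whose part in this value was not tested. ACO4, an ACC oxidase, overlapped at 604.4 to 1607 in rin and 1139 to 2370 in wild type.

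Ethylene perception and response had 0 of 26 genes called and a median of -0.14. EIL2, an EIN3-like transcription factor of the ethylene pathway, gave 1587, 1914 and 1737 in rin, against 1103, 1143 and 787.2 in wild type. The groups did not overlap, the log2 difference was 0.80 (95% interval 0.36 to 1.24), and it missed the threshold at 35 DAP (adjusted p = 0.195) while passing at 45 DAP (1.76, adjusted p = 2.22e-05 by limma). CTR3, a CTR1-like kinase that holds the pathway off, gave 106.1 to 118.5 in rin and 57.62 to 84.93 in wild type. JERF3, an ethylene response factor, gave 356.5 to 420.6 in rin and 490.9 to 629.9 in wild type. Neither passed (adjusted p = 0.563 and 0.63 by limma). In all, 3 of the 26 genes lay wholly higher in rin and 2 wholly lower, where 6.93% and 5.52% of all tested probe sets did so.

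**Figure D4:**
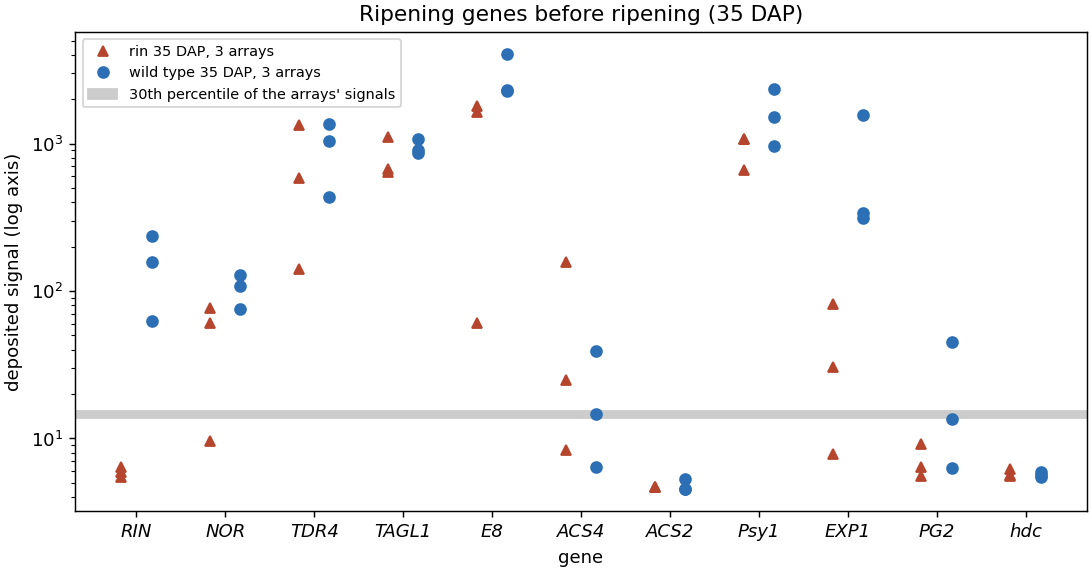
Signal (log axis) of 11 ripening genes at 35 DAP, with the 3 rin arrays as triangles to the left of the 3 wild-type arrays as circles, and the 30th percentile of the arrays as a grey band. RIN, EXP1 and E8 have separate groups, ACS2 and hdc lie under the band in both genotypes, and PG2 is bright on 1 wild-type array at 45.02.

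Carotenoid and isoprenoid genes had 0 of 17 called and a median of -0.15. Psy1, the fruit phytoene synthase that opens the carotenoid pathway, gave 658.7, 1068 and 1077 in rin, against 1527, 969.6 and 2351 in wild type. The groups overlapped (log2 difference -0.73, adjusted p = 0.641 by limma), and the difference was -2.86 at 40 DAP (adjusted p = 1.37e-04 by limma). PDS, phytoene desaturase, gave 171.1 to 217.9 in rin and 177.5 to 323.5 in wild type. HMGR, which forms mevalonate for isoprenoids, gave 16.81, 35.48 and 19.74 in rin, against 99.09, 201.3 and 57.69 in wild type. Its groups did not overlap, at a log2 difference of -2.20 (95% interval -3.18 to -1.23) just short of the threshold (adjusted p = 0.061 by limma). The HMGR difference was -0.06 at 40 DAP.

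Of the cell wall genes, 0 of 26 were called and the median was -0.03. In the list 1 gene lay wholly higher in rin and 2, XTH5 and EXP1, wholly lower. Over all tested probe sets 6.93% and 5.52% did so. XTH5, a xyloglucan endotransglucosylase/hydrolase that cuts and rejoins wall polymers, gave 684.5, 275.7 and 1075 in rin, against 2453, 2080 and 2624 in wild type (log2 difference -2.02, 95% interval -2.97 to -1.06, adjusted p = 0.0814 by limma). EXP1, the ripening expansin that loosens the wall, gave 30.39, 7.796 and 81.73 in rin, against 339.6, 313.4 and 1563 in wild type (log2 difference -4.36, 95% interval -6.99 to -1.73, adjusted p = 0.284 by limma). EXP1 was called lower at 40 and 45 DAP, at -4.77 and -5.85 (adjusted p = 0.0107 and 0.00265 by limma). PG2, the polygalacturonase of ripening, was dim on all rin arrays at 5.58 to 9.194 and gave 6.329, 13.55 and 45.02 in wild type. Cel1, an endoglucanase, gave 4.748 to 15.07 in rin and 11.93 to 735.6 in wild type, and wild-type replicate 2 alone was above 22.91. Outside the list, the expansin exp11 gave 100.8, 24.59 and 39.14 in rin, against 20.09, 6.064 and 10.08 in wild type, without overlap and without a call (log2 difference 2.10, adjusted p = 0.245 by limma).

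Sugar and starch genes had 0 of 15 called and a median of 0.16. AI, the vacuolar acid invertase that splits sucrose into hexoses, gave 1367, 2916 and 718.4 in rin, against 9975, 7114 and 9641 in wild type. The groups were clearly apart, with a log2 difference of -2.63 (95% interval -3.83 to -1.44) that missed the threshold (adjusted p = 0.0633 by limma). At 45 DAP AI was called lower in rin (-2.34, adjusted p = 0.0063 by limma). Sucrose-phosphate synthase, SPS, gave 2165 to 2721 in rin and 1676 to 2295 in wild type. The sucrose synthase listed as LOC543961 (synonym SUS1) gave 523.8 to 1895 in rin and 387.8 to 625.8 in wild type. Both overlapped.

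A pair of gibberellin genes had separate groups, in opposite directions, and neither was called. GAI encodes the DELLA protein PROCERA, the repressor of gibberellin responses, and gave 423, 201.5 and 169.9 in rin, against 74.37, 47.57 and 40.17 in wild type. The groups did not overlap (log2 difference 2.22, 95% interval 1.22 to 3.23, adjusted p = 0.0633 by limma). GAI passed at 40 and 45 DAP with like differences of 2.15 and 2.31 (adjusted p = 0.004 and 0.00221 by limma). The gibberellin 20-oxidase 20ox-3, which acts late in gibberellin synthesis, gave 7.599, 26.97 and 157.4 in rin, against 732.7, 409.9 and 918 in wild type (log2 difference -4.35, 95% interval -6.29 to -2.42, adjusted p = 0.061 by limma). It was called lower at 40 DAP (-3.54, adjusted p = 0.0102 by limma) and not at 45 DAP (-0.74, adjusted p = 0.585). Of the 4 genes listed for gibberellin, brassinosteroid and abscisic acid, 0 were called, and of the 5 auxin response genes 0 were called with a median of -0.61. In auxin response, ARF3 gave 381.6 to 526.9 in rin and 293 to 369.2 in wild type, without overlap, while IAA7 and IAA17 overlapped. The other ARF3 probe set overlapped, at 105.1 to 243.5 in rin and 91.41 to 113.8 in wild type.

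**Figure D5:**
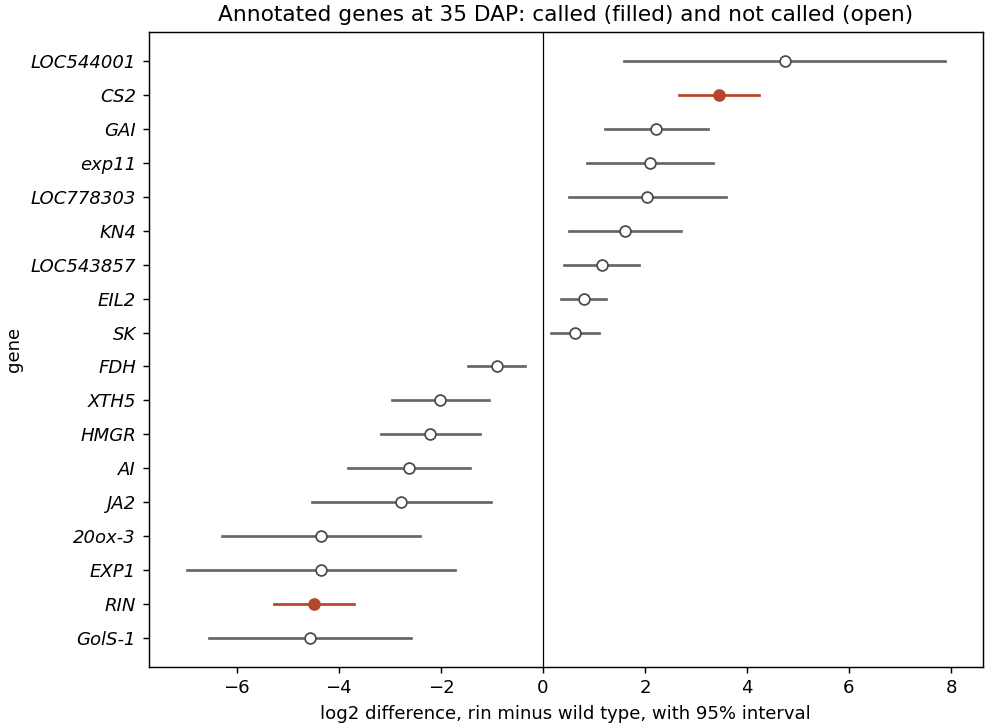
Log2 difference, rin minus wild type, at 35 DAP with its 95% interval for the 18 annotated genes named by p-value, with called genes filled and others open. RIN and CS2 are the filled points, and the 16 open ones, chosen by the smallest p-values among uncalled genes, miss the adjusted threshold.

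The other genes with separate groups had varied roles. On the higher side, KN4, a KNOTTED-type homeobox gene, gave 103.5, 142.6 and 105.8 in rin, against 40.9, 64.11 and 20.84 in wild type. LOC543857 gave 19.87 to 37.91 in rin and 11.99 to 15.13 in wild type, LOC778303 gave 83.1 to 165.8 in rin and 11.17 to 40.96 in wild type, and LOC544001 gave 452 to 5882 in rin and 4.769 to 227.8 in wild type. On the lower side, JA2, a NAC transcription factor, gave 26.03, 85.46 and 175.1 in rin, against 501.8, 563.1 and 446.1 in wild type. FDH gave 1195 to 1611 in rin and 1773 to 4444 in wild type. None of these passed, at adjusted p of 0.295 to 0.427 by limma. Among the 635 genes with a symbol, 43 lay wholly higher in rin and 41 wholly lower, where 6.93% and 5.52% of all tested probe sets did so, and the 16 uncalled genes in the plot of named differences were picked from these by their p-value, so that their intervals leave out 0 follows from the choice.

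Defence genes had 0 of 9 called and a median of -0.52, with spread inside the groups. The chitinase CHI3 gave 6.352, 64.47 and 35.74 in rin, against 118, 1089 and 127.7 in wild type. PR1b1, a pathogenesis-related protein, gave 5.118, 5.277 and 7.709 in rin, against 10.99, 1156 and 251.5 in wild type. Neither pair of groups overlapped and neither was called (adjusted p = 0.344 and 0.367 by limma), and wild-type replicate 2 was the brightest in both. CHI17, another chitinase, overlapped at 8.214 to 68.07 in rin and 15.38 to 301.8 in wild type.

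Photosynthesis genes had 0 of 6 called, and their median of -0.60 lay under that of all probe sets. Their summed signal was 5441, 6876 and 9614 in rin, against 10730, 7943 and 11340 in wild type, with overlap. PSBP, a subunit of the oxygen-evolving complex, gave 2410, 2230 and 2981 in rin, against 3850, 3116 and 3741 in wild type, without overlap (log2 difference -0.50, adjusted p = 0.567 by limma). CAB5, a chlorophyll a/b-binding protein, and LOC543978, a photosystem I subunit (synonym psaD), overlapped.

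The remaining lists gave no call. In aroma synthesis, 0 of 8 genes passed with a median of -0.27, and LOXB, loxC and the alcohol acyltransferase AAT all overlapped between the genotypes. In glutamate, arginine, histidine and polyamine metabolism, 0 of 9 passed with a median of -0.58. Arginine decarboxylase, ADC, which starts a route to putrescine, gave 353.4, 733.9 and 445.1 in rin, against 1348, 1092 and 1341 in wild type (log2 difference -1.37, adjusted p = 0.338 by limma). Ornithine decarboxylase, ODC, opens the other route to putrescine and was dim on all rin arrays, at 6.994 to 12, and gave 12.49 to 21.18 in wild type. The histidine decarboxylase hdc was dim everywhere, at 5.604 to 6.255 in rin and 5.471 to 5.893 in wild type. The gene listed as gad2, whose synonym GAME11 leaves the name in doubt, gave 312.3 to 609.4 in rin and 546.3 to 11780 in wild type, where replicate 2 was far above the others. Cell cycle genes had 0 of 5 called: krp1, a cyclin-dependent kinase inhibitor, PCNA and the histone H1 all overlapped. Jasmonate synthesis (4 genes), heat shock (3) and flavonoid synthesis (2) likewise held 0 called.

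Over all lists, 2 of 159 distinct genes were called, against 0.337% of all tested probe sets. These were RIN, the gene of the lesion, and CS2, from a list of genes named CS. The lists were chosen with earlier results of these data known, so these shares are not a test. The 3 arrays of one genotype lay wholly above those of the other for 21 of the 159 (13.2%, 8 higher in rin and 13 lower), against 12.5% of all tested probe sets. The median log2 difference over the 159 genes was -0.15.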

How the data were processed

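Pericarp RNA was measured on 18 Affymetrix tomato arrays. The values the authors deposited are linear intensity signals, a single one for each probe set on each array. GCOS produced them, per the submitters' processing notes. Its version and the target of scaling are not given in the sources used here, and the trimmed means of the 6 arrays at 35 DAP, 337.7 to 343.4, show that levels had been brought together. Groups came from the genotype and age labels. Growth and treatment notes, which describe seedlings rather than fruit, were set aside.

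From the deposited intensity values, log2 was taken without further normalization. Of 10209 probe sets, 108 controls and 2384 dim ones (above the 30th percentile of the array on fewer than 3 arrays) were left out, leaving 7717. A model of 6 group means was fitted with limma 3.58.1 (lmFit, eBayes with a trend) in R 4.3.3, two-sided, with Benjamini-Hochberg adjustment over all 7717 and a threshold of 0.05. The number of arrays limits precision. Intervals are 95%. "At least" folds raise each dim signal to its array's 30th percentile and are ratios of geometric means. The code was tested on simulated data.

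The platform's 2007 annotation gives 909 probe sets a single symbol and none several, and 885 matched RefSeq (assembly SLM_r2.1) by Entrez ID. Of those tested, 687 probe sets for 635 genes had a symbol and 7030 are unnamed here. The brightest probe set stood for a gene. Lists were matched by symbol and synonym.

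Named were RIN, all called genes with a symbol, the 8 genes per direction with the smallest p among those uncalled and not overlapping, up to 3 genes of each list with at least 5 measured members, a panel of ripening genes, and the 5 widest unnamed probe sets per direction. The members and lists were chosen with earlier results of these data known. The labels do not say that same-numbered plants share anything, so numbers were not taken to pair arrays. Deviations of same-numbered replicates correlated at -0.0971, -0.088 and -0.0201, which with 3 arrays per group cannot decide it. Alternatives were the filter, the scaling, an offset of 32, the trend, array weights, a 2-fold minimum, only 6 arrays, blocks, and each array left out.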

Additional observations from a re-analysis of the deposited data

Results flagged for a closer look

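The results below were marked because the difference between rin and wild type at 40 or 45 DAP departed from that at 35 DAP in the limma interaction test, with p-values adjusted over 7717 probe sets. Each value is the log2 difference, rin minus wild type, at the later age minus that at 35 DAP. The tests share the 35 DAP arrays.

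Of 11 ripening genes in the panel, the change was called for 6 at 40 DAP and for 3 at 45 DAP, all negative. Over all tested probe sets it was called, in either direction, for 9.37% at 40 DAP and 13.2% at 45 DAP. In the panel, NOR, TDR4, TAGL1, E8 and EXP1 passed at neither age. RIN changed by -4.92 to 40 DAP and by -5.65 to 45 DAP (adjusted p = 9.16e-05 and 8.61e-06 by limma). ACS2 changed by -7.82 and -7.76 (adjusted p = 0.00219 and 0.00101 by limma), and hdc by -9.55 and -8.53 (adjusted p = 0.00108 and 0.00107 by limma). Both were dim in each genotype at 35 DAP. At 40 DAP alone, ACS4 changed by -6.10, PG2 by -5.91 and Psy1 by -2.12 (adjusted p = 0.0178, 0.0415 and 0.0249 by limma). SK of the shikimate pathway changed by -1.43 and -1.87 (adjusted p = 0.0111 and 0.00117 by limma). CS1 changed by -1.17 and -1.04 (adjusted p = 0.00546 and 0.00642 by limma), and DHQS by -1.15 at 45 DAP (adjusted p = 0.0212 by limma).

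For other annotated genes the difference, not necessarily a signal, moved upward by 45 DAP. It moved by 0.96 for EIL2 (adjusted p = 0.0425) and by 4.45 for GolS-1 (adjusted p = 0.0374), both by limma. For the photosystem I subunit LOC543978 it moved by 3.53 (adjusted p = 0.0017) and for the gene listed as gad2 by 7.07 (adjusted p = 0.00239), both by limma. At 45 DAP GolS-1 was dim in both genotypes, and gad2 gave 4.844 to 5.036 in wild type and 82.55 to 302.5 in rin. For gad2, wild-type replicate 2 at 35 DAP stood at 11780, against 546.3 and 799 on replicates 1 and 3.

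Among unnamed probe sets, the 5 that stood lowest in rin at 35 DAP changed upward. LesAffx.71476.1.S1_at changed by 8.49 and 10.42 (adjusted p = 0.00855 and 0.00134 by limma), and Les.3752.1.S1_at by 7.24 and 9.94 (adjusted p = 0.0494 and 0.00758 by limma). LesAffx.37565.1.S1_at changed by 6.84 and 9.39 (adjusted p = 0.0475 and 0.00705 by limma), LesAffx.22457.1.S1_at by 7.77 and 9.33 (adjusted p = 0.00606 and 0.00101 by limma), and Les.5634.1.S1_at by 9.17 at 45 DAP (adjusted p = 0.0107 by limma). These 5 were at or near the floor in both genotypes at 45 DAP. Of those higher in rin, Les.4596.1.S1_at changed by 4.26 at 45 DAP (adjusted p = 0.0456 by limma), and Les.4181.1.A1_at by -3.39 and -3.83 (adjusted p = 0.0104 and 0.003 by limma).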

How the results depend on the processing

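The count of 26 called probe sets (11 higher in rin, 15 lower) stayed within 1.5 times with no filter (26), quantile normalization (30), median centring (24), an offset of 32 (32), no variance trend (26), a 2-fold minimum (26) and the plant code as a random block (25). It was 16 (7 higher, 9 lower) with the filter at the 50th percentile, where fewer probe sets were tested, and 7 (1 higher, 6 lower) with only the 6 arrays at 35 DAP, where fewer arrays set the spread. With array quality weights it was 1689 (858 higher, 831 lower), all 26 included. Replicates share numbers in the labels. With replicate number as a block on the 6 arrays, 3 probe sets were called, 0 higher and 3 lower, out of 492 at an unadjusted p of 0.05, and RIN and CS2 were not among them (adjusted p = 0.165 and 0.151 by limma). The labels do not say that same-numbered arrays share anything. Deviations of differently numbered arrays correlated at -0.175 to 0.213, so with 3 arrays per group the low correlations of same-numbered ones cannot decide it. Leaving out 1 array at a time gave 20 to 226 called, 9 to 132 higher and 11 to 94 lower. Without both second replicates, added after seeing the data, 17 were called, 7 of them higher. The cause of these shifts was not tested, apart from fewer probe sets or arrays where stated.

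Of single genes and probe sets, 980 values under alternatives kept their direction and side of the threshold, 36 passed only under the alternative, 20 missed only there and 11 changed sign, all 11 for uncalled genes. Leaving out 1 array at a time gave TDR4 -1.57 to 0.0493, ACS4 -0.104 to 2.02, ACS2 -0.0787 to 0.0348 and hdc -0.00304 to 0.0763, where TDR4 turned without rin replicate 2, ACS4 without rin replicate 3, ACS2 without wild-type replicate 2 and hdc without rin replicate 1. Without both second replicates the sign changed for TDR4 (0.198), PDS (0.0196), LOXB (0.0135) and ACS2 (0.036). ACS2 also turned with median centring (0.00604) and array weights (0.00895), and hdc with array weights (-0.0219). ACS2 and hdc were dim on all arrays at 35 DAP, so their differences have no settled direction.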

Other observations

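Without rin replicate 1, 11 genes with a symbol were called at an adjusted p of 0.05 by limma, RIN and CS2 among them. The others were GolS-1, AI, XTH5 and LOC543857, described above, and ats1, APX1, LOC543663, ER21 and ATG6. APX1, a cytosolic ascorbate peroxidase, gave 32.59, 117.5 and 125.5 in rin, against 35.75, 62.46 and 30.55 in wild type. ER21, listed among ethylene-responsive and heat shock genes, gave 11.43, 42.99 and 73.76 in rin, against 16.26, 23.02 and 9.874 in wild type. ATG6, an autophagy gene, gave 49.5, 15.06 and 23.73 in rin, against 41.11, 38.76 and 39.49 in wild type. In all 3, rin replicates 2 and 3 lay outside the range of the wild-type arrays on one side. Replicate 1 lay within that range for APX1 and ER21 and beyond it on the opposite side for ATG6. With all arrays none of the 3 was called.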
